A study of Mus musculus with 6 samples.

Results

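The genes described here are 32 components and targets of the Wnt signalling pathway, chosen by name: ligands and the proteins that secrete them, Frizzled and LRP receptors, proteins that control receptor turnover, a secreted antagonist, the intracellular relay and destruction complex, the TCF and LEF transcription factors, and a pair of genes that respond to the pathway. Of these, 28 of the 32 were found among the 23644 genes of the expression table, and Fzd8, Dkk1, Nkd1 and Axin2 were not analysed here. The study profiled RNA from 4T1, a mouse mammary tumour cell line, in 3 control libraries labelled wild type and 3 libraries labelled Carmil3 knockout. Carmil3 encodes a regulator of actin filament capping. Single-cell clones gave rise to the knockout cells, and an effect of the knockout cannot be told apart from a difference between clones. The labels do not state how many clones were used or whether each library had its own culture, so the p-values measure only the spread between these libraries, which may be technical. In bulk RNA, fewer cells expressing a gene and less RNA per cell cannot be told apart.

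Wnt proteins are lipid-modified secreted ligands that bind a Frizzled receptor together with the co-receptor Lrp5 or Lrp6. In the absence of ligand, a complex of Axin, Apc and Gsk3 marks beta-catenin for destruction. On ligand binding, Dishevelled proteins hold back that complex, and beta-catenin enters the nucleus to activate genes with TCF and LEF factors. A separate branch, planar cell polarity signalling, runs through Frizzled and Dishevelled to the actin cytoskeleton. In the mammary gland Wnt signalling is known for its part in branching and in the maintenance of basal progenitor cells.

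Read totals recovered from the table lay between 17778493 and 19046114 per library. Knockout replicate 3 stood apart from the other knockout libraries on the second principal component, which held 11.8% of the variance, at 15.55 against -6.725 and -9.562. The targeted gene could not check the labels, because Carmil3 lay at 0.0360, 0.0246 and 0.0117 FPKM in the control libraries and at 0, 0.0118 and 0.0241 FPKM in the knockout libraries. All 6 epithelial markers examined, Krt8, Krt18, Krt14, Krt19, Epcam and Cdh1, were lower in the knockout libraries, and their summed level was 987 to 1077 FPKM in control and 428 to 473 FPKM in knockout. Epcam went from 19.7 to 0.0875 FPKM and Cdh1 from 12.4 to 0.773 FPKM on average. Of the fibroblast markers, 3 of 5 were in the table, with a summed level of 11.4 to 12.002 FPKM in control and 17.8 to 18.3 FPKM in knockout: Pdgfra rose and Col1a1 fell. Of the leukocyte markers, 4 of 6 summed to 9.004 to 12.2 FPKM and 5.16 to 7.74 FPKM, nearly all of it Cd14. The endothelial markers, 4 of 5 in the table, summed to 0.0299 to 0.0572 FPKM in control and 0.0531 to 0.0682 FPKM in knockout. The part of these shifts in the changes of Wnt pathway genes was not tested.

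Of the 28 Wnt genes in the table, 24 passed the expression filter of at least 1 FPKM in at least 3 libraries, Fzd4 only through the control libraries. The markers Krt14, Epcam, Cdh1 and Col1a1 also passed this filter only through the control libraries, so that they had to differ. FPKM is a read number scaled by exon length and library depth. Differences were tested with limma on log2(FPKM + 1), a scale that understates the change of low genes, and a gene was called where its Benjamini-Hochberg adjusted p, computed across the 11171 tested genes of the table, was below 0.05. By this test 4 genes rose in the knockout cells (Wnt10a, Fzd7, Sfrp1 and Sox9) and 7 fell (Ccn4, Fzd6, Fzd4, Znrf3, Apc, Tcf7 and Lgr4), while 13 were not called. That is 45.8% of the tested Wnt genes against 35.6% of all genes tested, where 16.9% were called higher and 18.7% lower. The Wnt genes did not move one way: their median log2 change was -0.04, against -0.01 over all genes, and their median absolute log2 change was 0.14 against 0.16. In 14 of the 24 the control and knockout libraries did not overlap, against 50.5% of all genes. Changes of at least 1 on the log2 scale were found for Wnt10a and Ccn4, and 2.38% of all genes were called with a change of that size. These were also the Wnt genes still called in a limma test against a 1.5-fold change, which ended the calls of the other 9.

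**Figure D1:**
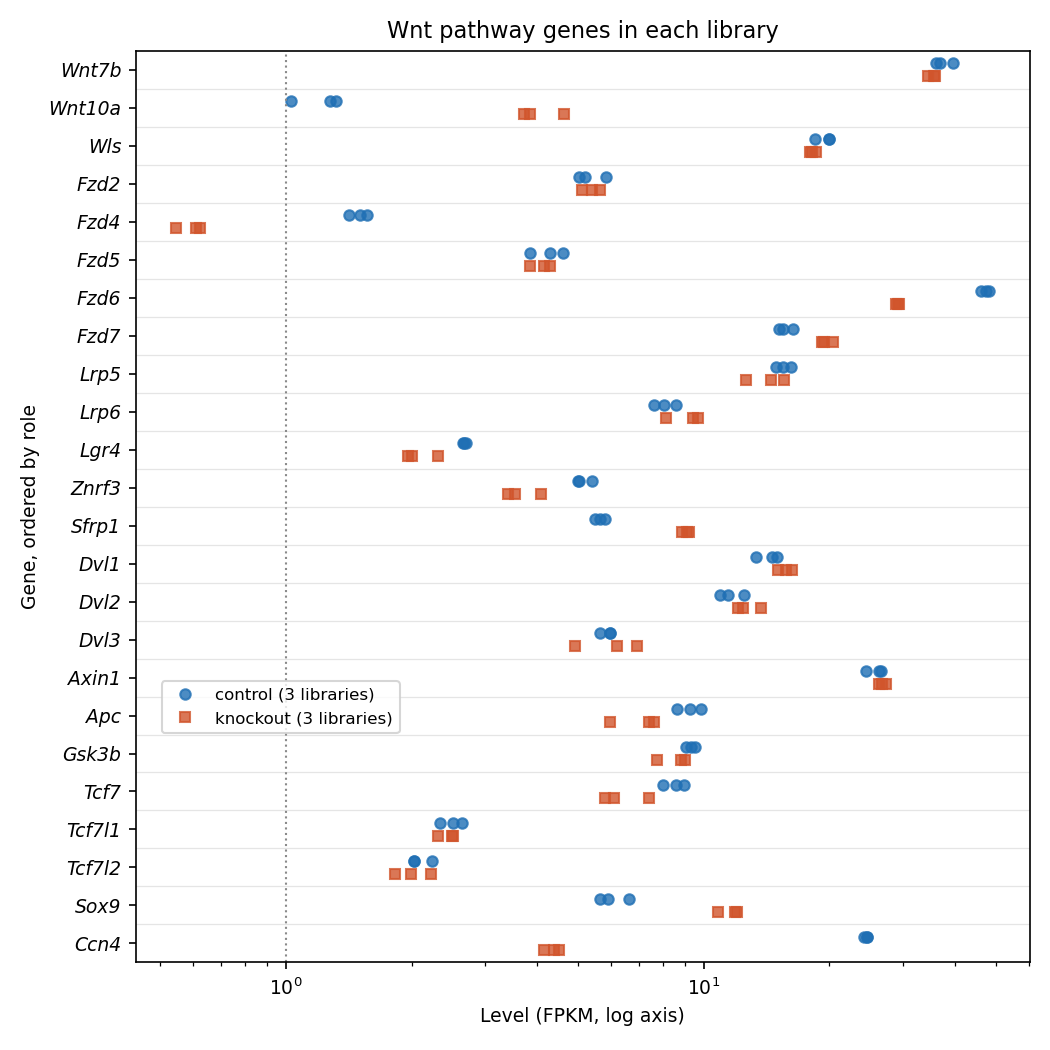
Level of each tested Wnt pathway gene in the 3 control libraries (circles) and the 3 knockout libraries (squares), in FPKM on a log axis, with the dotted line at 1 FPKM. The widest gaps between the groups are those of Ccn4 (24.4 against 4.34 FPKM on average) and Wnt10a (1.21 against 4.07 FPKM).

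Among the ligands, the most abundant one was not called and a minor one rose. Wnt7b, a ligand of epithelial cells, was at 36.8, 36.0 and 39.5 FPKM in the control libraries and at 35.6, 35.8 and 34.4 FPKM in the knockout libraries. The groups did not overlap, but the log2 change of -0.08 (95% interval -0.21 to 0.04) did not pass the test (adjusted p = 0.269, limma). Wnt10a (ENSMUSG00000026167; chromosome 1, 74791516 to 74804179, plus strand, GRCm38), a ligand of skin and its appendages, was at 1.31, 1.03 and 1.28 FPKM in control and at 4.64, 3.72 and 3.84 FPKM in knockout. All knockout libraries lay above all control libraries, and the mean rose 3.37-fold from 1.21 ± 0.157 to 4.07 ± 0.497 FPKM (SD, n = 3 each). The log2 change was 1.20 (SE 0.09) with an adjusted p of 2.84e-05 by limma. These values rest on about 59, 45 and 59 recovered reads in control and 218, 170 and 172 in knockout.

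Of 17 further ligand genes 11 were in the table, and Wnt6 and Wnt10b passed the filter. Wnt6, a ligand gene 6194 bases upstream of Wnt10a on the same strand, showed the same direction. It was named after its values were seen. Its levels were 0.0251, 0.0770 and 0.0975 FPKM in control, or about 1, 3 and 4 reads, and 1.37, 1.13 and 1.43 FPKM in knockout, or about 57, 46 and 57 reads. It passed the filter only through the knockout libraries, so that it had to differ, and its log2 change was 1.11 (adjusted p = 3.61e-05, limma). Ttll4, the other tested gene within 100 kb of Wnt10a, was not called (log2 change 0.13, adjusted p = 0.264, limma). Wnt7a, also named after its values were seen, went the other way: it was at 1.07, 0.904 and 0.909 FPKM in control and was listed at 0 in all 3 knockout libraries. It stayed below the filter, and an exact two-sided permutation test gave p = 0.1, the smallest that 3 against 3 libraries allow. Wnt10b, the second most abundant ligand, was at 5.39 ± 0.334 FPKM in control and 6.34 ± 0.476 FPKM in knockout (SD, n = 3 each), and its log2 change of 0.20 did not pass (adjusted p = 0.0608, limma), although the groups did not overlap. Wnt10b was called with median-of-ratios rescaling, with quantile normalization, without knockout replicate 3 and on centring by neighbouring genes (adjusted p = 0.0481, 0.0351, 0.0355 and 0.0482, limma). Wnt10b too was named after its values were seen.

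Summed over the 13 Wnt ligands in the table, the level was 46.2 ± 2.16 FPKM in control and 48.3 ± 1.56 FPKM in knockout (SD, n = 3 each). Wnt7b made up 80.9% ± 0.854 of that sum in control and 73.2% ± 1.497 in knockout. The share of Wnt10a went from 2.60% ± 0.269 to 8.42% ± 0.809, and that of Wnt10b from 11.7% ± 0.496 to 13.1% ± 0.567.

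The genes for ligand secretion were not called. Wls, which carries Wnt proteins to the cell surface, was at 19.9, 19.99 and 18.4 FPKM in control and 18.1, 18.0 and 18.6 FPKM in knockout, with overlapping groups and a log2 change of -0.09 (95% interval -0.21 to 0.04, adjusted p = 0.24, limma). Porcn, the enzyme that attaches the lipid to Wnt proteins, lay below the filter at 1.23, 0.469 and 1.23 FPKM in control and 0.788, 0.703 and 0.662 FPKM in knockout. Its groups overlapped, and the exact two-sided permutation p was 0.4.

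The Frizzled receptors moved apart: Fzd6 and Fzd4 fell, Fzd7 rose, and Fzd2 and Fzd5 were not called. Fzd6 (ENSMUSG00000022297; chromosome 15, 39006034 to 39038188, plus strand), a receptor best known from planar cell polarity and hair patterning, was at 47.4, 48.2 and 46.1 FPKM in control and 29.3, 29.4 and 28.9 FPKM in knockout. The libraries of each group lay close together and far from the other group. Its mean fell 1.62-fold from 47.2 ± 1.09 to 29.2 ± 0.249 FPKM (SD, n = 3 each), a log2 change of -0.67 (SE 0.05, adjusted p = 1.57e-05, limma). Fzd4 (ENSMUSG00000049791; chromosome 7, 89404355 to 89413134, plus strand), the receptor for the vascular ligand norrin as well as for Wnt proteins, was at 1.56, 1.41 and 1.502 FPKM in control and 0.609, 0.547 and 0.623 FPKM in knockout. The groups did not overlap, and the control mean was 2.52-fold the knockout mean (1.49 ± 0.0747 and 0.593 ± 0.0408 FPKM; SD, n = 3 each). The log2 change was -0.65 (SE 0.08) with an adjusted p of 0.000345 by limma. Fzd4 passed the filter only through the control libraries, so the call carries that choice with it.

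Fzd7 (ENSMUSG00000041075; chromosome 1, 59482424 to 59486955, plus strand), a receptor associated with mammary progenitor cells, rose 1.26-fold. It was at 16.3, 15.1 and 15.5 FPKM in control and 20.4, 19.2 and 19.5 FPKM in knockout. Every knockout library was above every control library, and the log2 change was 0.31 (SE 0.05, adjusted p = 0.0028, limma).

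The 250 bases before the RefSeq start sites of Fzd4 and Fzd7 are shown because these are the Frizzled genes that were called in opposite directions and had a RefSeq promoter (GRCm38.p6). Capitals mark CG dinucleotides, the sites of DNA methylation. The first lies at chr7:89404116-89404365 and the second at chr1:59481897-59482146, both on the plus strand and written 5′ to 3′.
Fzd4: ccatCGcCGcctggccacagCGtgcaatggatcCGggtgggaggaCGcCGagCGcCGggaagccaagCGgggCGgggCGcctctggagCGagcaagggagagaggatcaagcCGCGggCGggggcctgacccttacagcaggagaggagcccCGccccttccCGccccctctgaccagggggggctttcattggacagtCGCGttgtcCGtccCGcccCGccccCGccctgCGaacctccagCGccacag
Fzd7: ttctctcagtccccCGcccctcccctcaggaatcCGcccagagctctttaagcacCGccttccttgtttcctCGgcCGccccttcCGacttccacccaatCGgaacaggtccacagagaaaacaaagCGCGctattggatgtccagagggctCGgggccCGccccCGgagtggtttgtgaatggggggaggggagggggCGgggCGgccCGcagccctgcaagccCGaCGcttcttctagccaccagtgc
The Fzd4 window held 25 CG dinucleotides with a GC content of 72.8%, and the Fzd7 window held 17 with 65.2%. Over the 32851 promoter windows of the same length the median was 6 CG dinucleotides and 52.4% GC, and 27.3% of them held at least 15. Both genes thus have CG-dense promoters, as do many of the Wnt genes. Over the 24 windows of Wnt genes with a RefSeq promoter the median was 13.5 CG dinucleotides and 63.2% GC. Of these windows 45.8% held at least 15. Methylation was not measured. The TCF motifs CTTTGAT and CTTTGAA, searched on both strands of the window extended by 50 bases past the start, were found in neither promoter. Of all windows of 300 bases, 8.65% held one. Among the 18 Wnt genes with a RefSeq promoter, which have 24 windows, a motif was found in Dkk1 and in none of the other 17. Counted by gene, 9.88% of the 27025 genes with a RefSeq promoter held a motif in at least 1 window.

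Fzd2, a receptor of the same subgroup as Fzd7, was at 5.36 ± 0.419 FPKM in control and 5.39 ± 0.267 FPKM in knockout (SD, n = 3 each), with a log2 change of 0.01 (95% interval -0.15 to 0.17). Fzd5, a receptor of the intestinal and ocular epithelium, was at 4.24 ± 0.388 and 4.09 ± 0.227 FPKM, with a log2 change of -0.04 (95% interval -0.21 to 0.13). Neither passed the test (adjusted p = 0.942 and 0.708, limma), and in both genes the groups overlapped. Fzd1, a close relative of Fzd2 and Fzd7, stayed below the filter at 0.878, 1.26 and 1.06 FPKM in control and 0.663, 0.657 and 0.630 FPKM in knockout. Its knockout libraries were all below its control libraries, and the exact two-sided permutation p was 0.1, the smallest possible here. Fzd3, a receptor of axon guidance that was named after its values were seen, was at 1.22, 1.26 and 1.01 FPKM in control and was listed at 0 in every knockout library. It passed the filter only through the control libraries, and its log2 change was -1.11 (adjusted p = 3.09e-05, limma).

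Summed over the 8 Frizzled genes in the table, the level was 76.9, 77.2 and 75.8 FPKM in control and 60.6, 59.7 and 59.4 FPKM in knockout, with no overlap. The difference came mainly from Fzd6, the largest component. Fzd6 made up 61.6% ± 0.829 of the sum in control and 48.7% ± 0.518 in knockout (SD, n = 3 each), and Fzd7 20.4% ± 0.846 and 32.9% ± 0.694. In both groups Fzd6 was first and Fzd7 second, followed by Fzd2 and Fzd5. The ranges of Fzd2 and Fzd5 did not overlap in either group, with Fzd2 at 5.04 to 5.83 FPKM and Fzd5 at 3.83 to 4.60 FPKM in control.

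**Figure D2:**
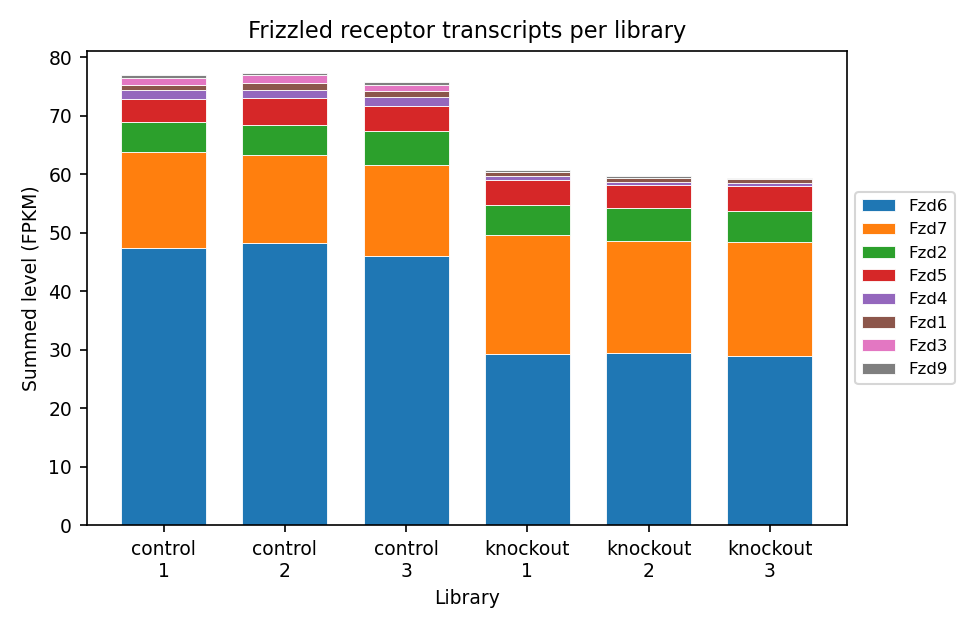
Summed level of the 8 Frizzled genes in each of the 6 libraries, in FPKM, stacked by gene. The control bars reach 75.8 to 77.2 FPKM and the knockout bars 59.4 to 60.6 FPKM, with a smaller Fzd6 segment and a larger Fzd7 segment in the knockout libraries.

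The co-receptors were not called. Lrp5, which is known for its role in bone mass, was at 15.5, 14.9 and 16.1 FPKM in control and 15.6, 14.5 and 12.6 FPKM in knockout, and its groups overlapped (log2 change -0.12, 95% interval -0.30 to 0.06, adjusted p = 0.261, limma). Lrp6, the co-receptor phosphorylated on Wnt binding, was at 8.01, 8.61 and 7.62 FPKM in control and 9.40, 9.70 and 8.10 FPKM in knockout. Knockout replicate 3 was the only knockout library of Lrp6 inside the control range. The log2 change of Lrp6 was 0.15 (95% interval -0.03 to 0.32, adjusted p = 0.17, limma), and without knockout replicate 3 it was 0.22 with an adjusted p of 0.0316 by limma.

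Both tested genes that set how long Frizzled stays on the membrane were called lower, as were 18.7% of all genes, but the Lgr4 call was not stable. Znrf3 (chromosome 11, 5276324 to 5444847, minus strand), a ubiquitin ligase that removes Frizzled from the cell surface, was at 5.02, 5.40 and 5.01 FPKM in control and 4.08, 3.54 and 3.40 FPKM in knockout. The groups did not overlap and the mean fell 1.4-fold, a log2 change of -0.40 (SE 0.07, adjusted p = 0.00385, limma). Lgr4 (chromosome 2, 109917647 to 110014257, plus strand), an R-spondin receptor that holds Znrf3 back, was at 2.66, 2.70 and 2.65 FPKM in control and 2.01, 1.96 and 2.31 FPKM in knockout. Its groups did not overlap either, and its mean fell 1.28-fold (log2 change -0.25, SE 0.07, adjusted p = 0.0272, limma). The Lgr4 call was lost on leaving out control replicate 1, 2 or 3 or knockout replicate 1 or 2 (adjusted p = 0.0864, 0.0700, 0.0652, 0.0838 and 0.0934, limma). It was also lost with no expression filter (0.0550), with quantile normalization (0.0686) and on centring by neighbouring genes (0.309). Rnf43, the paralogue of Znrf3, was below the filter: about 5, 7 and 7 reads were recovered in control and it was listed at 0 in all knockout libraries (exact two-sided permutation p = 0.1, the smallest possible).

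Sfrp1, a secreted protein that binds Wnt ligands, rose. Sfrp1 (ENSMUSG00000031548; chromosome 8, 23411502 to 23449632, plus strand) was at 5.48, 5.80 and 5.63 FPKM in control and 9.22, 8.86 and 9.13 FPKM in knockout. The spread within each group was small beside the gap between them. The mean rose 1.61-fold, from 5.64 ± 0.159 to 9.07 ± 0.187 FPKM (SD, n = 3 each), a log2 change of 0.60 (SE 0.05, adjusted p = 7.43e-05, limma).

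**Figure D3:**
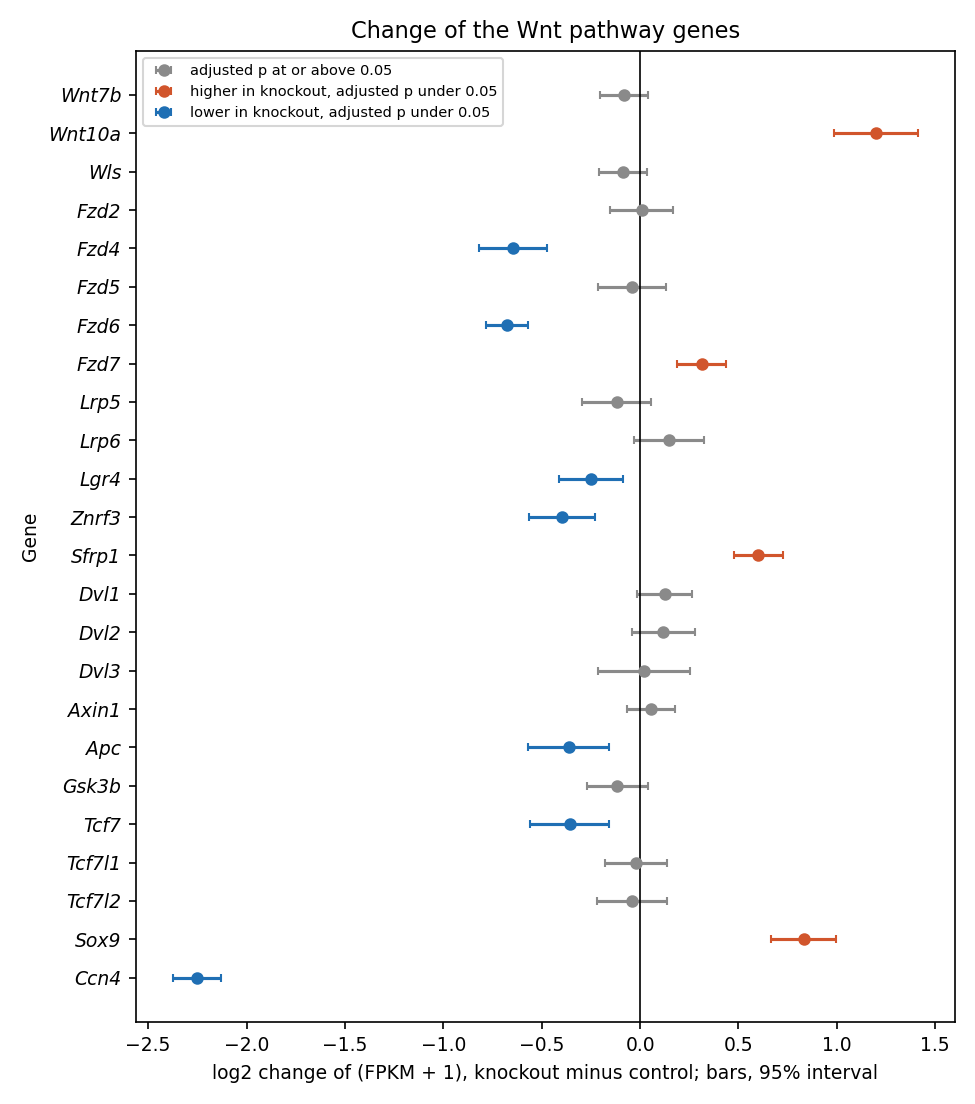
Log2 change of (FPKM + 1), knockout minus control, for the 24 tested Wnt pathway genes in order of role, with 95% intervals of each gene taken alone. The called genes lie on both sides of 0, from Ccn4 at -2.25 to Wnt10a at 1.20, and the Dishevelled genes, Axin1 and Gsk3b lie near 0.

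The intracellular relay showed few changes. The Dishevelled genes, which pass the signal from Frizzled to the destruction complex, were not called: the log2 change was 0.13 for Dvl1 (95% interval -0.01 to 0.27), 0.12 for Dvl2 (-0.04 to 0.28) and 0.02 for Dvl3 (-0.21 to 0.25). Their adjusted p-values by limma were 0.142, 0.218 and 0.892. The Dvl1 groups did not overlap, at 14.6, 13.4 and 14.97 FPKM in control and 16.3, 15.8 and 15.1 FPKM in knockout. Dvl2 shares 18.3% of its exon length with Acadvl on the other strand, so its value can hold reads of that gene. Dvl3 was at 5.96, 5.66 and 5.96 FPKM in control and spread from 4.91 FPKM in knockout replicate 3 to 6.92 FPKM in knockout replicate 1.

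Within the destruction complex Apc fell and its partners were not called. Apc, the scaffold whose loss starts many intestinal tumours, was at 9.29, 9.86 and 8.61 FPKM in control and 7.40, 7.62 and 5.98 FPKM in knockout. The groups did not overlap, and the mean fell 1.32-fold from 9.25 ± 0.623 to 6.997 ± 0.887 FPKM (SD, n = 3 each; log2 change -0.36, SE 0.09, adjusted p = 0.0148, limma). Without control replicate 1 or control replicate 2 the Apc call did not hold, with adjusted p-values of 0.0505 and 0.0534 by limma, nor did it with no expression filter (0.0528). Axin1, the scaffold that limits the amount of the complex, was at 25.7 ± 1.15 and 26.8 ± 0.542 FPKM (SD, n = 3 each), with a log2 change of 0.06 (95% interval -0.07 to 0.18, adjusted p = 0.451, limma). Gsk3b, the kinase that marks beta-catenin, was at 9.32, 9.51 and 9.09 FPKM in control and 9.03, 8.84 and 7.73 FPKM in knockout. Its groups did not overlap, but the log2 change of -0.12 (95% interval -0.27 to 0.04) did not pass (adjusted p = 0.216, limma). Ctnnb1, which encodes beta-catenin itself, was at 107, 106 and 109 FPKM in control and 110, 112 and 108 FPKM in knockout. Its log2 change was 0.04 (95% interval -0.07 to 0.15, adjusted p = 0.57, limma). These are transcript levels, and beta-catenin protein was not measured.

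Of the transcription factors, Tcf7 fell. Tcf7 (ENSMUSG00000000782; chromosome 11, 52252371 to 52283014, minus strand), which encodes TCF1, was the most abundant of the family at 8.57, 7.99 and 8.95 FPKM in control and 5.80, 6.11 and 7.41 FPKM in knockout. Knockout replicate 3 was the highest of its group, yet all knockout libraries lay below all control libraries. The mean fell 1.32-fold (log2 change -0.36, SE 0.09, adjusted p = 0.0137, limma). Tcf7l1, mostly a repressor, was at 2.50 ± 0.151 and 2.44 ± 0.113 FPKM (SD, n = 3 each; adjusted p = 0.833, limma). Tcf7l2, the main factor of the intestine, was at 2.09 ± 0.120 and 2.01 ± 0.199 FPKM (SD, n = 3 each; adjusted p = 0.721, limma). In both genes the groups overlapped. Lef1 was close to 0 in all libraries, with at most 2 recovered reads in any of them (exact two-sided permutation p = 0.4). The summed level of the 4 genes was 13.1 ± 0.668 FPKM in control and 10.9 ± 1.08 FPKM in knockout, of which Tcf7 made up 64.9% ± 1.25 and 59.0% ± 2.41 (SD, n = 3 each).

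The pair of target genes went opposite ways. Ccn4 (also called Wisp1; ENSMUSG00000005124; chromosome 15, 66891320 to 66923201, plus strand), a secreted matricellular protein first described as induced by Wnt1 in mammary cells, was at 24.5, 24.2 and 24.6 FPKM in control and 4.39, 4.15 and 4.50 FPKM in knockout. The control mean of 24.4 ± 0.230 FPKM was 5.63-fold the knockout mean of 4.34 ± 0.175 FPKM (SD, n = 3 each). With a log2 change of -2.25 (SE 0.05, adjusted p = 2.6e-08, limma), Ccn4 showed the largest change of the 24 tested genes. Ndrg1, the only other tested gene within 100 kb, lies 6117 bases away and was not called (log2 change -0.14, adjusted p = 0.156, limma). Sox9 (ENSMUSG00000000567; chromosome 11, 112782224 to 112787760, plus strand), a transcription factor of luminal progenitors and cartilage, was at 6.64, 5.66 and 5.92 FPKM in control and 12.02, 10.8 and 11.9 FPKM in knockout. No library crossed over, and the mean rose 1.91-fold from 6.07 ± 0.507 to 11.6 ± 0.672 FPKM (SD, n = 3 each; log2 change 0.83, SE 0.07, adjusted p = 5.47e-05, limma).

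A longer list of genes often described as Wnt targets was set beside them. Of 29 listed genes 22 were in the table and 17 were tested: 8 rose, 1 fell and 8 were not called, with a median log2 change of 0.16 against -0.01 over all genes. That is 52.9% called against 35.6% of all genes, and the counts and the median include Fst and Ephb3, each of which passed the filter only through the group where it is high and so had to differ. Many of these genes also respond to other pathways. The 5 listed genes below the filter were Bmp4, Cldn2, Lgr5, Nkd2 and Notum. Their highest value in any library was 0.481 FPKM, that of Notum in knockout replicate 3. Ccnd1, which encodes cyclin D1, rose 2.07-fold, from 179, 178 and 176 FPKM to 376, 384 and 346 FPKM (log2 change 1.04, adjusted p = 5.01e-06, limma). Myc, the growth regulator, was at 40.5, 36.7 and 41.6 FPKM in control and 54.2, 52.3 and 56.0 FPKM in knockout (log2 change 0.44, adjusted p = 0.000809, limma). In both Ccnd1 and Myc every knockout library was above every control library.

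The AP-1 subunits Fosl1 and Jun, the helix-loop-helix inhibitor Id2 and the activin antagonist Fst rose as well, with log2 changes of 0.78, 0.67, 0.68 and 0.82 (adjusted p = 2.35e-05, 0.000152, 0.00162 and 0.000402, limma). Fosl1 shares 57.2% of its exon length with Ccdc85b on the other strand, so reads of the 2 genes cannot be told apart there. Smaller rises were found for Tnfrsf19, a receptor of the TNF family (log2 change 0.38, adjusted p = 0.00147, limma), and Vegfa, the angiogenic factor (log2 change 0.31, adjusted p = 0.0019, limma). Ephb3, a guidance receptor, fell from 1.07 ± 0.0593 to 0.320 ± 0.0171 FPKM (SD, n = 3 each; log2 change -0.65, adjusted p = 0.000412, limma). Fst was at 0.259, 0.457 and 0.206 FPKM in control, or about 22, 37 and 18 reads, and at 1.24, 1.23 and 1.44 FPKM in knockout. Cd44, the hyaluronan receptor, was not called at 43.4 and 44.4 FPKM (adjusted p = 0.611, limma), but was called higher on centring by neighbouring genes (adjusted p = 0.0201, limma). After that centring 10 of the 17 tested genes were called higher and 1 lower, Fst and Ephb3 included, where 26.6% of all genes were called. Myc, Jun, Fst, Tnfrsf19, Vegfa, Ephb3, Cd44 and the listed genes below the filter were named after their values were seen.

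**Figure D4:**
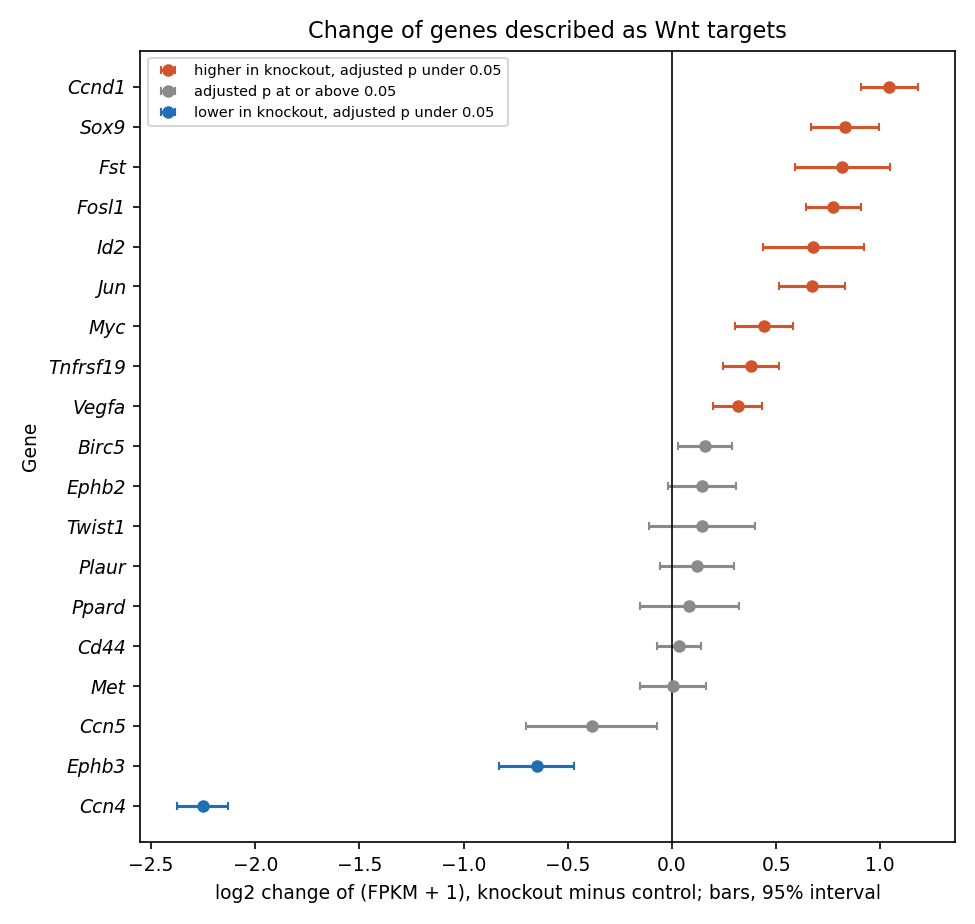
Log2 change of (FPKM + 1), knockout minus control, for the tested genes described as Wnt targets, Ccn4 and Sox9 included, with 95% intervals of each gene taken alone. Ccnd1 (1.04), Sox9 (0.83) and Fst (0.82) lie highest, and Ephb3 (-0.65) and Ccn4 (-2.25) lowest.

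Over the whole of the further pathway lists, 120 of 146 genes were in the table and 82 were tested, of which 18 rose, 12 fell and 52 were not called. These counts include Wnt6, Fst, Fzd3 and Ephb3, which passed the filter only through 1 group. That is 36.6% of the tested genes against 35.6% of all genes. Among 6 tested receptors outside the 32 genes, 2 rose and 2 fell. Lgr6, an R-spondin receptor like Lgr4, fell from 10.7 ± 0.155 to 6.32 ± 0.123 FPKM (SD, n = 3 each; log2 change -0.67, adjusted p = 2.95e-05, limma). Reck, a membrane glycoprotein that aids Wnt7 signalling, rose from 1.61 ± 0.323 to 2.59 ± 0.200 FPKM (SD, n = 3 each; log2 change 0.47, adjusted p = 0.00721, limma). Ryk, a Wnt receptor with an inactive kinase domain, was called higher by a small margin (log2 change 0.15, adjusted p = 0.0425, limma), and the call was lost on leaving out control replicate 1, 2 or 3 or knockout replicate 1 or 2, with adjusted p-values from 0.0792 to 0.136, and with no filter (0.0716) or plain eBayes (0.0593).

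Of 3 tested secreted or membrane modulators, Tpbg, an inhibitor of the beta-catenin branch, rose from 10.98 ± 0.313 to 14.9 ± 1.21 FPKM (SD, n = 3 each; log2 change 0.41, adjusted p = 0.00202, limma). Kremen1, a receptor for Dkk proteins, fell from 8.20 ± 0.408 to 6.17 ± 0.271 FPKM (SD, n = 3 each; log2 change -0.36, adjusted p = 0.00264, limma). Kremen1 lies 14766 bases from Znrf3, which also fell.

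In the list of beta-catenin regulators and destruction complex partners 2 of 22 tested genes rose and 2 fell. That is 18.2% called against 35.6% of all genes, the smallest share of the further lists. Dact2, a Dishevelled binding protein, rose from 5.70 ± 0.274 to 9.31 ± 0.919 FPKM (SD, n = 3 each; log2 change 0.62, adjusted p = 0.000423, limma). Ccny, a membrane cyclin that helps Lrp6 phosphorylation, fell from 27.5 ± 0.637 to 21.9 ± 0.505 FPKM (SD, n = 3 each; log2 change -0.32, adjusted p = 0.00152, limma). Gsk3a, the paralogue of Gsk3b, was called higher (log2 change 0.21, adjusted p = 0.0158, limma) and the ubiquitin ligase Siah1b lower (log2 change -0.28, adjusted p = 0.0157, limma). The Gsk3a call did not hold without knockout replicate 2 (adjusted p = 0.0667, limma), and the Siah1b call did not hold without control replicate 3 or knockout replicate 2 (adjusted p = 0.0549 and 0.0568, limma).

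Among 21 tested nuclear cofactors 4 rose and 2 fell, or 28.6% called against 35.6% of all genes. On centring by neighbouring genes 2 were called higher and 1 lower. Bcl9 and Pygo2, which tie beta-catenin to chromatin, were both higher (log2 change 0.34 and 0.25, adjusted p = 0.0162 and 0.00923, limma). The Bcl9 call did not hold without control replicate 2, knockout replicate 1 or knockout replicate 2, or with no filter (adjusted p = 0.0537, 0.0532, 0.0539 and 0.0541, limma). The exchange factor Tbl1xr1 rose (log2 change 0.25, adjusted p = 0.00992, limma), while its relative Tbl1x and the polymerase-associated factor Cdc73 were called lower (log2 change -0.23 and -0.21, adjusted p = 0.0346 and 0.0279, limma). Leaving out any control library ended the Tbl1x call (adjusted p = 0.119, 0.0730 and 0.0687, limma), and leaving out control replicate 1 or 2 or knockout replicate 1 or 2 ended that of Cdc73 (0.101, 0.0805, 0.0824 and 0.0519). Neither call held with no filter (0.0919 and 0.0583), and that of Tbl1x did not hold with plain eBayes (0.0505).

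In the planar cell polarity list none of the 11 tested genes rose and 4 fell, with a median log2 change of -0.10. That is 36.4% called, against 35.6% of all genes, and on centring by neighbouring genes 3 were called lower and the median was -0.02. Prickle1, a core polarity protein, fell 2.03-fold from 7.04, 7.79 and 7.54 FPKM to 3.93, 3.31 and 3.81 FPKM, with no overlap (log2 change -0.85, adjusted p = 4.93e-05, limma). Daam1, a formin that binds Dishevelled, fell from 6.15 ± 0.152 to 3.75 ± 0.318 FPKM (SD, n = 3 each; log2 change -0.59, adjusted p = 0.000312, limma).

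Since neighbouring genes can share a shift, each change was also centred by subtracting the median over its 20 closest tested neighbours to either side on the chromosome. After this centring 26.6% of all genes with a value were called, and of the Wnt genes 4 were called higher and 7 lower. Wnt10a, Fzd7, Sfrp1, Sox9, Ccn4, Fzd6, Fzd4, Znrf3 and Tcf7 kept their calls. Lgr4 and Apc did not, with centred log2 changes of -0.11 and -0.24 (adjusted p = 0.309 and 0.0817, limma). Wls and Tcf7l1 were called lower, at -0.20 and -0.26 (adjusted p = 0.0262 and 0.028, limma). Of the further genes, Ccny, Siah1b, Pygo2, Tbl1x and Ryk were among those that lost their calls on centring (adjusted p = 0.0754, 0.118, 0.15, 0.353 and 0.207, limma), and Gsk3a and Cdc73 turned direction without being called (-0.02 and 0.04). The median of the neighbours was -0.18 around Fzd6 and -0.24 around Ccn4, and the centred changes of these genes were -0.50 and -2.01. All 3 tested genes within 100 kb of Fzd6, namely Baalc, Slc25a32 and Dcaf13, were lower too, with log2 changes of -0.88, -0.33 and -0.43. Next to Fzd4, Tmem135 starts on the other strand beside the Fzd4 start and was not called (log2 change -0.14, adjusted p = 0.189, limma). Prss23, the other tested gene within 100 kb of Fzd4, fell (log2 change -1.25, adjusted p = 2.52e-05, limma). The neighbouring genes given here and beside Wnt10a and Ccn4 were named after their values were seen.

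**Figure D5:**
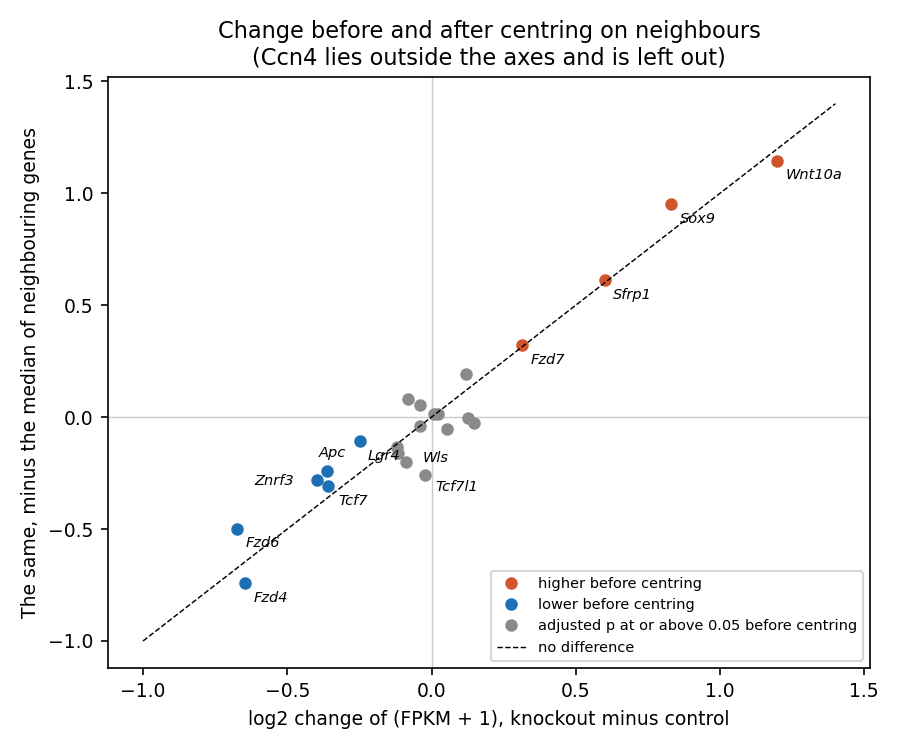
Log2 change of each tested Wnt pathway gene (horizontal axis) against the same value minus the median of its neighbouring genes (vertical axis), with the dashed line marking equal values and Ccn4 (-2.25 and -2.01) left out for scale. Fzd6 moves from -0.67 to -0.50 and Lgr4 from -0.25 to -0.11, while Fzd7 stays at 0.31 and 0.32.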

How the data were processed

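Per the labels' protocols, Trizol was used to extract RNA and libraries followed the usual Illumina procedure. The deposited table gives FPKM by the authors for 23644 genes; the unit was inferred from the values. The submitters' processing notes name the build mm10 and the tools HTSeq 0.6.0, TopHat2 2.0.12, TopHat, Bowtie2, Bowtie and CASAVA. Which annotation and strand setting served is not stated in those notes, so reads of overlapping genes cannot be told apart.

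Symbols (23587 rows matched, 57 unmatched), positions and exon lengths came from GENCODE M21 (GRCm38). Read numbers were recovered from the spacing of the values: per library, 91.97% to 92.28% of values worth at most 500 reads were whole numbers to within 0.02. Listed genes sum to between 108.7% and 109.1% of the recovered total, and depths are therefore approximate. Since the table holds no counts, the design's branch for normalized values was followed: log2(FPKM + 1) fitted with limma 3.58.1 (R 4.3.3; eBayes, trend and robust) over 6 libraries in 2 groups. Genes below the filter are given by value, with an exact permutation test over libraries. The fit was tested on simulated data.

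The 32 genes and the further lists were chosen with earlier results of these data known. Named were all 32 genes, up to 3 called genes per direction of each further list (largest log2 change, higher group mean at least 2 FPKM), and Ctnnb1, Cdh1 and Carmil3; names outside this rule are marked in the text. Some genes of the planar cell polarity list are not reported here by name. Alternatives changed the pseudocount (0.1 or 5), the filter (none or 5 FPKM), the scaling (median-of-ratios or quantile), eBayes (plain), the null (a 1.5-fold change), the model (a replicate block, or limma-voom on recovered reads), the libraries (leaving out each) and the reference (centring on neighbours). RefSeq (GRCm38.p6) promoters matched 18 of the 32 genes. Tables and plots used matplotlib 3.10.9, pandas 2.3.3, numpy 2.4.6 and Python 3.11.15.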

Additional observations from a re-analysis of the deposited data

How the results depend on the processing

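Of 378 comparisons of the 24 tested Wnt genes with alternatives (the 1.5-fold null aside), 363 kept their side of the threshold. No called Wnt gene changed direction, but some that were not called did, such as Wnt7b on centring (log2 change -0.08 to 0.08). The 12 lost calls concern Lgr4 and Apc, the 3 gained ones Lrp6, Wls and Tcf7l1. Against a 1.5-fold change only Wnt10a and Ccn4 kept their calls, which left 1 Wnt gene higher and 1 lower, 2 further pathway genes higher and 1 lower, and 118 and 193 of all genes; this test asks for a larger change by construction. Centring on neighbours turned the direction of Gsk3a (log2 change -0.023) and of Cdc73 (0.044); the cause was not tested.

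With each library left out in turn, the Wnt genes called higher numbered 4 to 5 and lower 5 to 7, the further pathway genes 14 to 25 and 10 to 15, and all genes 1182 to 2041 and 1358 to 2218. The lowest counts over all genes were those without control replicate 1. Without knockout replicate 3, 5 Wnt genes were called higher and 7 lower. limma-voom on recovered reads called 4 and 7 Wnt genes and 2070 and 2243 of all genes. With the replicate number as a block, 4 Wnt genes were called higher and 7 lower, 20 and 16 further pathway genes, and 1900 and 2127 of all genes. Same-numbered libraries deviated together only weakly (r = -0.06, 0.15 and 0.10), so the numbers were not taken as a pairing. In the control libraries Wnt10a, Fst and Wnt6 rest on at most about 59, 37 and 4 reads.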
